A study of Mus musculus with 8 samples.

Results

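Dual-specificity phosphatases (DUSPs) and Sprouty proteins are feedback inhibitors of the ERK pathway, and 10 of their genes were examined in Tregs at day 2 of differentiation. The genes were taken by symbol from a list of names, namely Dusp1, Dusp2, Dusp4, Dusp5, Dusp6, Dusp10, Spry1, Spry2, Spred1 and Spred2, and all 10 were found among the 28239 symbols of the count table. Naïve CD4+ T-cells came from spleens of mice on the C57BL/6 background, 4 of them WT and 4 Alox15-/-, and were cultured for 2 days with IL-2, TGF-β and beads carrying antibodies to CD3 and CD28. All libraries shared this culture, so that genotype was the only labelled difference, and the mice of the study were 10 to 12 weeks old and of both sexes. Alox15 encodes a lipoxygenase that makes lipid mediators, and the comparison asks which transcripts of the feedback inhibitors differed when Tregs were derived from Alox15-/- mice. The Alox15-/- allele was carried by whole mice and not by T-cells alone. RNA was read by MACE-seq, an assay that counts reads near the 3′ ends of transcripts.

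The T-cell receptor and CD28 switch on RAS, which passes its signal through the kinases RAF, MEK and ERK to the nucleus. ERK then raises transcription of early genes, and among these are genes for its own inhibitors. DUSPs remove phosphate from the activation loop of ERK, JNK or p38, while Sprouty and Spred proteins act higher up, between the receptor and RAF. Levels of the inducible members are therefore widely used as a readout of recent ERK signaling, although they also depend on the half-life of their short-lived messages.

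Promoters are shown for 3 phosphatase genes that were highest in the same library and, for contrast, for Dusp10, which was not. They were chosen after the motif search, and Dusp6 and Spry1, also highest in that library, held none of the marked motifs. Of the 10 genes, 9 had an entry in the RefSeq promoter table (build GRCm38.p6), and Dusp4 did not. Each sequence covers the 250 bases before the RefSeq start site, 5′ to 3′ on the strand of the gene. The windows of Dusp1 and Dusp10 lie wholly inside the gene spans given below, so the outer starts of those spans were not searched. Dusp1 lies on the minus strand (chr17:26508473-26508722), and Dusp2 (chr2:127335909-127336158), Dusp5 (chr19:53528895-53529144) and Dusp10 (chr1:184034131-184034380) on the plus strand. Capitals mark matches, on either strand, to the cAMP response element TGACGTCA (CRE), its short form TGACG, the EGR motif GCGNGGGCG or the CArG box bound by serum response factor.
Dusp1: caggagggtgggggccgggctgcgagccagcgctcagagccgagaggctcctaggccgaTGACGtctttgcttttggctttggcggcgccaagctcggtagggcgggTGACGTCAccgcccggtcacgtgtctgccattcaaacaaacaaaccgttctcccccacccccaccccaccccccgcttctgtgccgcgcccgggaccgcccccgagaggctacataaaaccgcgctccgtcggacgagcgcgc
Dusp2: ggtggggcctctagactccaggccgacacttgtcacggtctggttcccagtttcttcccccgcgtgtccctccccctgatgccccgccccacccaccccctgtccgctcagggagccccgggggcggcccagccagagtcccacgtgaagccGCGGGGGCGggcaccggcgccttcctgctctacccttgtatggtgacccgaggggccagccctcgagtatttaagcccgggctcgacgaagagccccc
Dusp5: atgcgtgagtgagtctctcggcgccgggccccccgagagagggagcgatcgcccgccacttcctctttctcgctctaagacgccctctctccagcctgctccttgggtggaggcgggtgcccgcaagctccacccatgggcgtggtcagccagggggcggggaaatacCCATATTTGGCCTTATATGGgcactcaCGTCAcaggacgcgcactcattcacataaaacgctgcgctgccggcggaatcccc
Dusp10: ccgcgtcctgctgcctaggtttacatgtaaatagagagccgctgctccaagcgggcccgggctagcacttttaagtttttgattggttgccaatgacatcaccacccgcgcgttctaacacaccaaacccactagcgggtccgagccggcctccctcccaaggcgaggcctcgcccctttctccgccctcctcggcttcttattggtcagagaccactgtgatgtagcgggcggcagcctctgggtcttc

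The promoter of Dusp1 held a CRE, from 143 to 136 bases before the start, as did 1.55% of 32851 promoters of the same length. A separate short form, which every CRE also contains and which 17.8% of promoters held, lay upstream. Dusp2 had an EGR motif from 98 to 90 bases before the start (4.7% of promoters). In Dusp5 a pair of CArG boxes stood next to each other between 82 and 63 bases before the start, where 1.47% of promoters held any, and a short CRE followed. Dusp10 held none of these, nor did Dusp6, Spry1, Spry2 or Spred1, and Spred2 had 1 short CRE. The NFAT core GGAAA, left in lower case because 55.6% of promoters held it, occurred in Dusp5, Dusp6, Spry2, Spred1 and Spred2. The AP-1 motif TGANTCA (6.75% of promoters) and the ETS motif CCGGAA (12% of promoters) were absent from all 9 windows. Among the 11018 promoters of tested genes the shares were 2.65% for the CRE, 27.2% for its short form, 8.84% for the EGR motif, 1.08% for the CArG box, 4.03% for AP-1, 22.9% for ETS and 54.3% for the NFAT core. These are matches of letters within one window.

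Total counts ranged from 3723151 to 9538962 per library, and 12700 genes with at least 2 CPM (counts scaled to a common library total) in at least 4 libraries were tested. Of the 10 members, 9 passed this filter and Spry2 did not. Values are CPM after TMM scaling, are not divided by transcript length and are not compared between genes. For Alox15 itself the mean under the knockout label was 66.8 ± 3.18 CPM (SD, n = 4), and the WT mean was 5.28 ± 3.59 CPM (SD, n = 4). Its transcript was thus higher under that label (log2 fold change 3.65, edgeR adjusted p = 1.08e-05). The exons removed in the allele are not given in the sources used here, and reads from the 3′ end cannot check the labels unless they fall in the removed part, so each group is called by its label. All 9 markers listed for CD4+ T-cells and Tregs were tested, and their summed level was between 2896 and 3056 CPM in the libraries labelled Alox15-/- and between 3002 and 3192 CPM in those labelled WT. Listed markers of other cells moved with the label. Calls are given out of the markers tested, and of all genes 1.05% were called higher and 0.197% lower. Erythroid markers summed to between 902 and 3467 CPM against 32.8 to 121.7 CPM (5 of 5 called higher). Myeloid markers summed to between 47.2 and 327 CPM against 10.7 to 18.2 CPM (5 of 6). Mast cell and basophil markers were at 132 to 321 CPM against 56.9 to 81.4 CPM (5 of 6). Eosinophil markers were at 19.2 to 68.8 CPM against 1.25 to 10.2 CPM (2 of 2). NK and γδ T-cell markers were at 88.6 to 160.1 CPM against 29.2 to 50.5 CPM (5 of 5). B cell markers lay lower, at 5.53 to 7.52 CPM against 8.27 to 19.2 CPM (1 of 2 called lower). CD8 markers were at 12.02 to 21.8 CPM against 21.3 to 31.6 CPM (0 of 2 called). No listed marker was at 0 in all 8 libraries, while others, Pax5, Ncr1, Klra8, S100a9, Siglecf, Ccr3 and Alas2 among them, were at 0 in at least 1. The part of these cells in the levels below was not tested, and fewer cells of a type cannot be told apart from less RNA per cell.

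None of the 9 tested feedback inhibitors differed between the groups at an adjusted p under 0.05, a threshold that 1.24% of all 12700 genes passed (1.05% higher and 0.197% lower). The count was 0 of 9 by edgeR's quasi-likelihood test, DESeq2 and limma-voom alike. At an unadjusted p under 0.05 in edgeR, Dusp1, Dusp4 and Dusp5 were lower in the libraries labelled Alox15-/- (3 of 9, against 3.38% of all genes) and Dusp10 was higher (1 of 9, against 4.46%), 4 of 9 in all beside 7.84% of genes in either direction. This count of 4 depended on the processing and on single libraries. It was 1 with upper quartile scaling, the robust test or limma-voom and without replicate 2 or replicate 3 labelled Alox15-/-. It was 2 with DESeq2's test or its size factors, with at least 10 counts in every library, and without replicate 4 of either group, 3 without WT replicate 1, and 5 with the likelihood-ratio test or without WT replicate 3. Without the filter on low counts it was 6 of 10, beside 7.01% of 28239 genes. In that fit 4 of these, Dusp1, Dusp4, Dusp5 and Spry1, passed the adjusted threshold in edgeR, beside 1.37% of genes. Once WT replicate 4 was also left out, 0 of 10 passed it (1.42% of 27832 genes) and 3 had an unadjusted p under 0.05 (7.22%). For the 4 called without the filter, fold changes stayed close to those with it, such as -0.91 against -0.89 for Spry1. The unadjusted edgeR p fell from 0.0539 to 6.97e-06 for Spry1, and from 3.41e-09 to 9.47e-99 for Alox15. Those calls thus came with smaller fitted errors, and why they were smaller was not tested. In all, 4 members had positive and 5 negative fold changes, with a median log2 fold change of -0.19 beside -0.0073 over all genes tested. Without WT replicate 4 the median was 0.115, with 5 positive and 4 negative, and without replicate 2 labelled Alox15-/- it was -0.014. For several members 1 library, WT replicate 4, stood above the rest, as the values of each gene show.

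**Figure D1:**
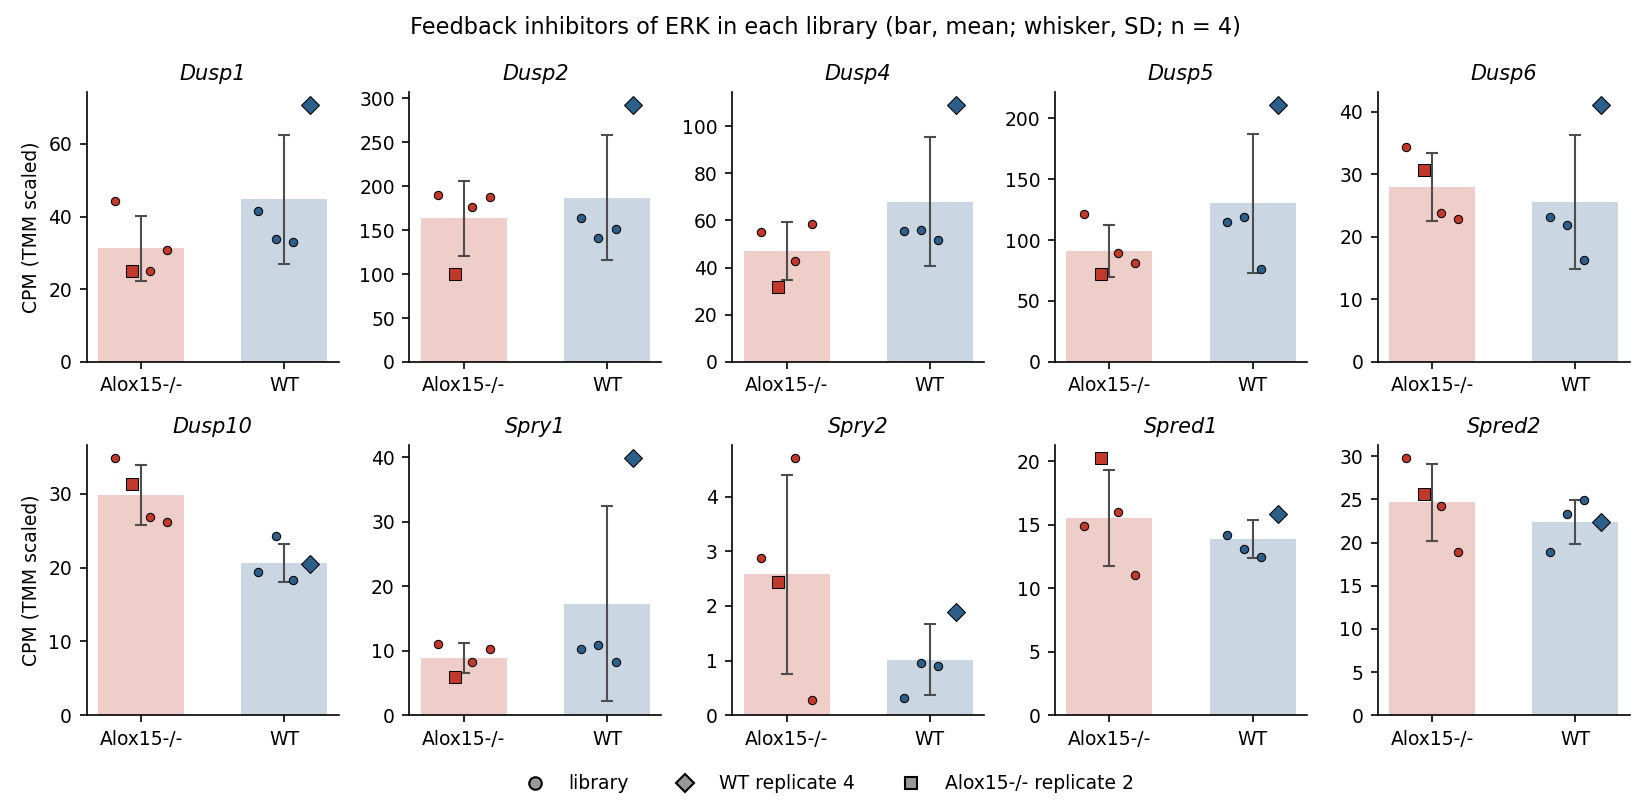
TMM-scaled CPM (y axis, from 0) of the 10 genes in the 4 libraries labelled Alox15-/- (red) and the 4 labelled WT (blue). Bars are means and whiskers SD. The diamond, WT replicate 4, is the top point for Dusp1, Dusp2, Dusp4, Dusp5, Dusp6 and Spry1, whereas for Dusp10 all 4 red points lie above all blue points.

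The nuclear, inducible phosphatases come first. Dusp1 (ENSMUSG00000024190.7; GRCm38 chromosome 17, 26505590 to 26562128, minus strand) encodes a phosphatase of p38, JNK and ERK that is made within minutes of stimulation. Its level was 44.2, 25.1, 25.0 and 30.8 CPM in replicates 1 to 4 labelled Alox15-/- and 41.5, 33.8, 33.1 and 70.8 CPM in the WT replicates. The groups overlapped, with WT replicate 4 well above the other 7 libraries. The log2 fold change was -0.50 (95% interval -1.01 to -0.0032, edgeR adjusted p = 0.636), and it was -0.20 (-0.58 to 0.18) without WT replicate 4. Dusp1 overlaps Ergic1 on the other strand, and whether reads were counted by strand is not given in the sources used here.

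Dusp2 (ENSMUSG00000027368.6; chromosome 2, 127336159 to 127338376, plus strand) is a nuclear phosphatase found mainly in activated blood cells. It was read at 189.8, 100.4, 176 and 188 CPM in the libraries labelled Alox15-/- and at 163, 141, 151 and 293 CPM in WT. Replicate 2 was the low library of the first group and replicate 4 the high one of the second, and the remaining 6 libraries lay between 141 and 189.8 CPM. The difference between the group means, 163 ± 42.5 against 187 ± 71.1 CPM (SD, n = 4), was smaller than either spread (log2 fold change -0.19, 95% interval -0.66 to 0.29, edgeR adjusted p = 0.890). Its direction turned to 0.11 (-0.24 to 0.47) without WT replicate 4.

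For Dusp4 (ENSMUSG00000031530.6; chromosome 8, 34807297 to 34819894, plus strand), a nuclear phosphatase of ERK and JNK, the values were 55.3, 31.6, 42.7 and 58.5 CPM under the Alox15-/- label and 55.4, 55.8, 51.7 and 109 CPM in WT. WT replicates 1 to 3 fell inside the range of the other group, and replicate 4 was at 2.01 times their mean. With it the log2 fold change was -0.51 (95% interval -0.998 to -0.018, edgeR adjusted p = 0.617), and without it -0.19 (-0.53 to 0.15).

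Dusp5 (ENSMUSG00000034765.6; chromosome 19, 53529109 to 53542431, plus strand) encodes a nuclear phosphatase that is selective for ERK. Libraries labelled Alox15-/- held 121, 72.1, 89.0 and 81.4 CPM and WT libraries 115, 119, 76.5 and 211 CPM. Again WT replicate 4 was the highest of all 8, while the other WT libraries lay inside the range of the first group. The log2 fold change was -0.51 (95% interval -1.02 to -0.0024, edgeR adjusted p = 0.636), falling in size to -0.18 (-0.54 to 0.18) without WT replicate 4.

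Dusp6 (ENSMUSG00000019960.8; chromosome 10, 99263231 to 99267489, plus strand) is the cytoplasmic, ERK-selective member of the set. It was at 34.4, 30.8, 23.9 and 22.9 CPM in the libraries labelled Alox15-/- and at 23.2, 21.8, 16.4 and 41.1 CPM in WT. Apart from WT replicate 4, the WT libraries were at or below 23.2 CPM, near the lower end of the other group. Over all libraries the log2 fold change was 0.14 (95% interval -0.36 to 0.64, edgeR adjusted p = 0.928). Without WT replicate 4 it was 0.45 (0.067 to 0.83), with an edgeR adjusted p of 0.468, and it was -0.033 without WT replicate 3.

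Dusp10 (ENSMUSG00000039384.8; chromosome 1, 184013302 to 184075636, plus strand) encodes a phosphatase that acts mainly on p38 and JNK. Its counts lay between 98 and 183 reads per library. The level was 34.8, 31.3, 26.9 and 26.2 CPM under the Alox15-/- label and 19.3, 24.2, 18.4 and 20.5 CPM in WT. All 4 libraries of the first group were above all 4 of the second, a separation in that direction seen in 2.75% of all genes tested. No member separated the other way, as 2.5% of genes did. WT replicate 4 was at 0.991 times the mean of the other WT libraries. The log2 fold change of 0.53 (standard error 0.145, 95% interval 0.22 to 0.84) had the smallest edgeR p of the members, 0.00235 before and 0.1405 after adjustment, so Dusp10 did not pass the threshold. It stayed between 0.45 and 0.62 over 20 other settings, with adjusted p from 0.056 to 0.405. The markers of erythroid, myeloid, mast and NK cells given above separated the groups in the same direction, and their part in Dusp10 was not tested.

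Sprouty proteins hold back the step from the receptor to RAS and RAF. Spry1 (ENSMUSG00000037211.12; chromosome 3, 37639947 to 37644598, plus strand) was at 11.1, 5.94, 8.28 and 10.3 CPM in the libraries labelled Alox15-/- and at 10.3, 10.8, 8.23 and 39.9 CPM in WT. In WT replicate 4 it stood at 4.08 times the mean of the other WT libraries, the greatest ratio among the members, from 191 reads. The log2 fold change moved from -0.89 (95% interval -1.79 to 0.017, edgeR adjusted p = 0.650) to -0.11 (-0.58 to 0.37) without that library. The dispersion fitted to Spry1, as a biological coefficient of variation, was 38.5% with it and 16.5% without it.

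Spry2 (ENSMUSG00000022114.5; chromosome 14, 105891947 to 105896819, minus strand), a close relative with the same role, was too low for the test. Between 2 and 25 reads were counted per library. Its level was 2.88, 2.43, 4.70 and 0.286 CPM in the libraries labelled Alox15-/- and 0.312, 0.956, 0.903 and 1.88 CPM in WT. Replicates 1 to 3 of the first group were above every WT library, and replicate 4 was below them all, so the groups overlapped at a depth of few reads. Fitted without the filter, the estimate was 1.33 on the log2 scale (standard error 0.463), with an edgeR adjusted p of 0.200.

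Spred proteins bring the RAS inhibitor neurofibromin to the membrane. Spred1 (ENSMUSG00000027351.14; chromosome 2, 117121374 to 117182279, plus strand) was at 14.9, 20.2, 16.0 and 11.02 CPM in the libraries labelled Alox15-/- and at 14.2, 13.1, 12.4 and 15.9 CPM in WT. Spred2 (ENSMUSG00000045671.17; chromosome 11, 19924375 to 20024026, plus strand) gave 29.8, 25.6, 24.3 and 18.9 CPM against 18.9, 23.3, 25.0 and 22.3 CPM. Neither gene was set apart in WT replicate 4, which was within the range of the libraries labelled Alox15-/- for both. Their log2 fold changes were 0.15 (95% interval -0.25 to 0.55, edgeR adjusted p = 0.893) and 0.12 (-0.21 to 0.46, edgeR adjusted p = 0.897). With all libraries, a change by more than 0.55 on the log2 scale thus lay outside both intervals. Without WT replicate 4 the intervals were -0.20 to 0.64 for Spred1 and -0.24 to 0.49 for Spred2. With each library left out, Spred1 ran from 0.00686 to 0.298 and Spred2 from 0.0229 to 0.243. Nf1, the gene of neurofibromin, was at 18.2 CPM against 17.6 CPM on average (log2 fold change 0.048, edgeR adjusted p = 0.967).

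**Figure D2:**
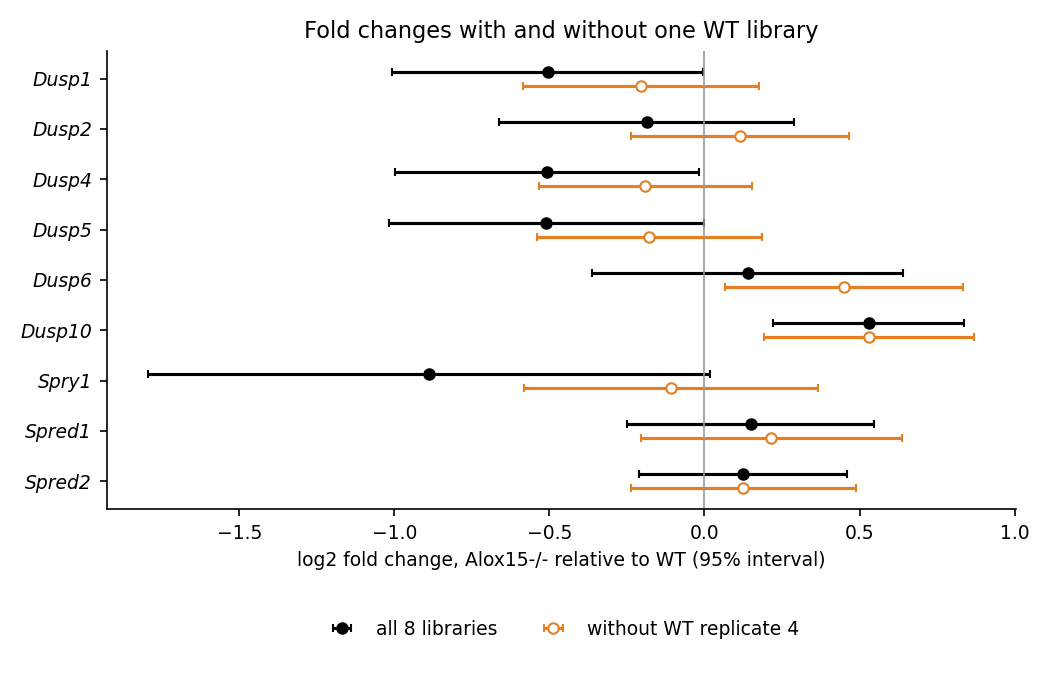
Log2 fold change (x axis) of the 9 tested genes, libraries labelled Alox15-/- relative to WT, with 95% intervals from edgeR for all 8 libraries (black) and without WT replicate 4 (orange). The estimates for Dusp1, Dusp4, Dusp5 and Spry1 move toward 0 and that of Dusp2 crosses it, while Dusp10 stays at 0.53.

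WT replicate 4 was the highest of the 8 libraries for Dusp1, Dusp2, Dusp4, Dusp5, Dusp6 and Spry1, 6 of 9 tested members, as it was for 17.9% of all genes. In 5 of these, all but Dusp6, it was at least 1.5 times the next highest library, which held for 0.906% of all genes. The ratio of this library to the mean of WT replicates 1 to 3 was between 1.93 and 2.04 for the 5 phosphatases and 4.08 for Spry1, but 0.991 for Dusp10, 1.20 for Spred1 and 0.998 for Spred2. At the other end, replicate 2 labelled Alox15-/- was the lowest library for Dusp2, Dusp4, Dusp5 and Spry1 (4 of 9, against 14.3% of all genes), and not for Dusp6, Dusp10, Spred1 or Spred2. That library had the highest myeloid (327 CPM), mast cell and basophil (321 CPM), eosinophil (68.8 CPM) and NK and γδ T-cell (160.1 CPM) sums of all 8 and the lowest Cd4, at 209 CPM against 277 to 350.1 CPM, and the part of these cells was not tested. Leaving out both libraries, a choice made after these values were seen, gave log2 fold changes of -0.12 for Dusp1, 0.28 for Dusp2, -0.051 for Dusp4, -0.086 for Dusp5, 0.40 for Dusp6, 0.51 for Dusp10 and 0.025 for Spry1. None of the 9 was called by edgeR in that fit, in which 0.934% of genes were, and 2 had an unadjusted p under 0.05, Dusp2 and Dusp10, beside 9.1% of genes. With WT replicate 4 alone left out, edgeR again called 0 of 9 (1.37% of genes), and Dusp6 and Dusp10 had an unadjusted p under 0.05 (8.39% of genes). WT replicate 4 had 4810125 counts, the fewest of its group and more than 2 of the libraries labelled Alox15-/-. Its CD4+ T-cell and Treg markers summed to 3044 CPM, inside the range of the other WT libraries. Foxp3, the Treg transcription factor, was at 92.9 CPM in it and at 101.01 to 194 CPM in the other WT libraries. Its mast cell and basophil markers (81.4 CPM against 56.9 to 62.5 CPM) and erythroid markers (121.7 CPM against 32.8 to 76.9 CPM) were above theirs, and the part of these cells was not tested.

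**Figure D3:**
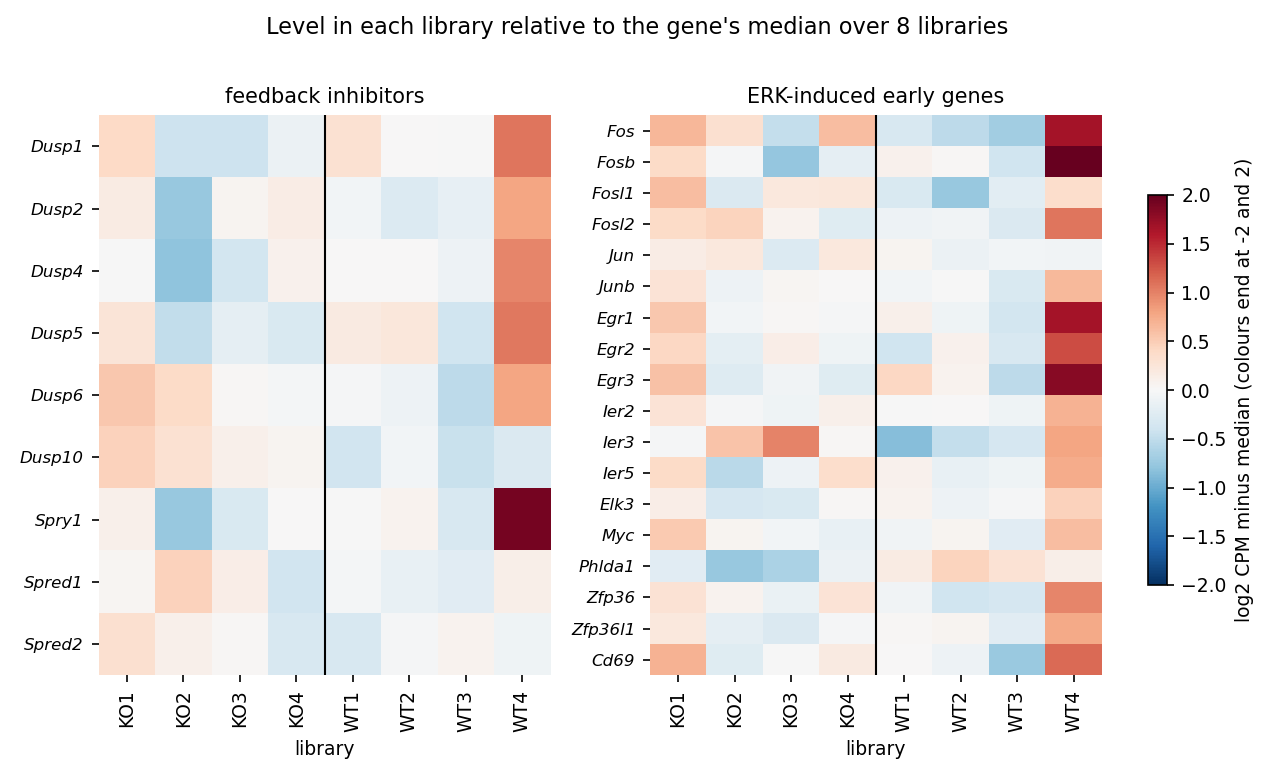
Log2 CPM minus the gene's median over 8 libraries (colour, red higher, ends at -2 and 2) for the tested feedback inhibitors and ERK-induced early genes (rows). Columns KO1 to KO4 are replicates labelled Alox15-/- and WT1 to WT4 the WT replicates. The WT4 column is red for Dusp1 to Dusp6, Spry1 and most early genes, and pale for Dusp10 and the Spred genes.

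Most of the listed genes that ERK is known to induce were highest in the same library. Of 21 listed, 18 were tested, and WT replicate 4 was the highest library for 14 of them, beside 17.9% of all genes, and at least 1.5 times the next for 7, namely Fos, Fosb, Fosl2, Egr1, Egr2, Egr3 and Zfp36, which were picked out for this after their values were seen. The exceptions were Fosl1 and Ier3, at 1.82 and 2.64 times the mean of the other WT libraries in it, and Jun and Phlda1, at 0.977 and 0.877 times. Egr1, an early transcription factor, was at 218 CPM in that library and at 73.5, 64.0 and 53.1 CPM in WT replicates 1 to 3. Egr3, its relative, was at 206 CPM there and at 40.1 to 77.8 CPM in them. Cd69, an early activation marker of T-cells, stood at 253 CPM in it and at 68.6 to 117 CPM in the other 3. The median ratio of WT replicate 4 to the other WT libraries was 2.10 over the 18 early genes and 1.96 over the 9 feedback inhibitors, beside 0.995 over all genes tested. It was 1.01 over the 18 genes of the RAS-ERK cascade, 0.946 over 9 other brakes on RAS and 1.02 over 8 kinases of the JNK and p38 routes. Replicate 1 labelled Alox15-/- came next after WT replicate 4. Mean log2 CPM of the early genes was 6.02 in WT replicate 4, 5.41 in that library and 4.79 to 5.11 in the rest. For the feedback inhibitors the means were 5.83, 5.37 and 4.89 to 5.09.

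**Figure D4:**
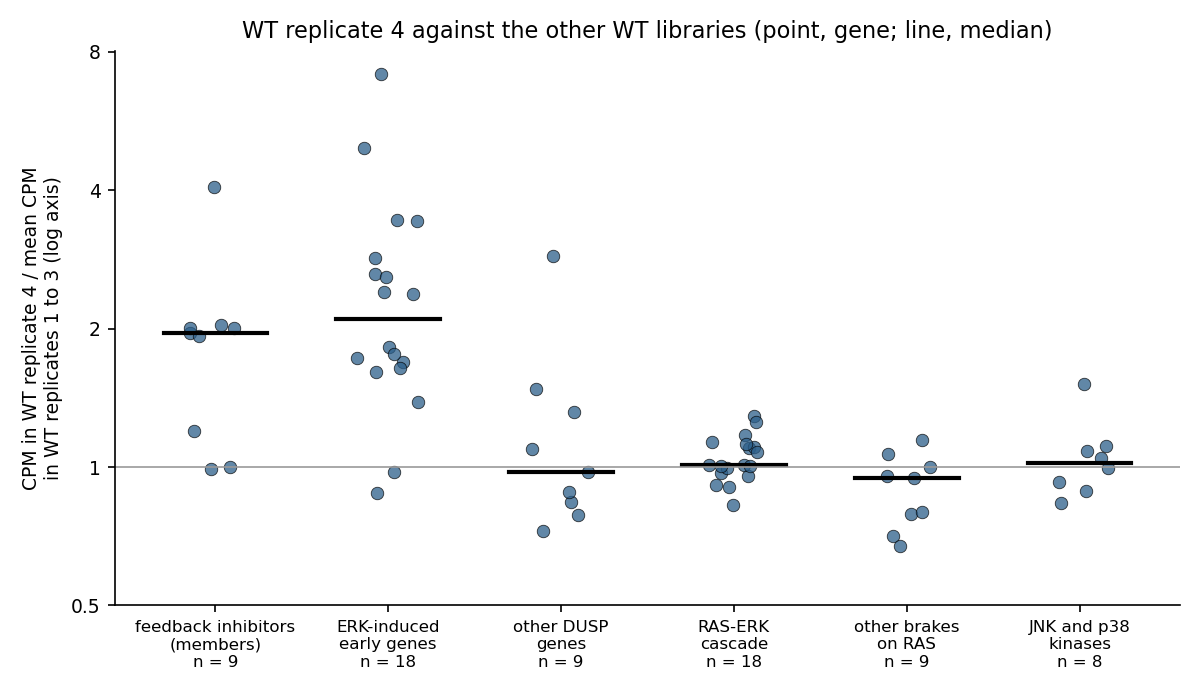
CPM in WT replicate 4 divided by mean CPM in WT replicates 1 to 3 (y axis, log scale) for each tested gene of 6 lists. Lines are medians, 1.96 for the feedback inhibitors and 2.10 for the early genes, and from 0.946 to 1.02 for the other 4 lists.

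Between the groups, 1 of the 18 early genes passed the threshold, and it was lower in the libraries labelled Alox15-/-. Phlda1, an early gene of the same pathway, was at 26.4, 18.4, 19.9 and 28.6 CPM under that label and at 35.1, 42.4, 38.2 and 33.8 CPM in WT. The groups did not overlap (5.25% of all genes did not, in either direction), and WT replicate 4 was the lowest of its group. The fold change of -0.67 on the log2 scale (standard error 0.153) had an edgeR adjusted p of 0.0431. It lost the threshold in 10 of 20 other settings, 6 of them the loss of replicate 1, 2 or 3 of either group, with adjusted p from 0.000443 to 0.206. Fosb had the lowest fold change of the list (-1.27, edgeR adjusted p = 0.687) and Ier3 the highest (0.60, edgeR adjusted p = 0.738). Without WT replicate 4 these were -0.017 and 1.03. The median over the early genes was -0.087 with all libraries, 4 higher and 14 lower, and 0.19 without WT replicate 4, 14 higher and 4 lower.

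Of the other DUSP and Sprouty family genes, 18 of 20 listed were in the table and 9 were tested, all of them DUSPs, while Spry3, Spry4 and Spred3 stayed under the filter. None passed the threshold in edgeR and 1 had an unadjusted p under 0.05. This was Dusp16, a phosphatase of JNK and p38 like Dusp10, at 8.89, 5.67, 6.58 and 7.44 CPM under the Alox15-/- label and 11.1, 10.2, 8.43 and 14.6 CPM in WT. Its fold change ran opposite to that of Dusp10, at -0.61 (standard error 0.217, edgeR adjusted p = 0.408), and the groups overlapped by 1 library. Dusp23 had the highest value of the list, 0.42 (edgeR adjusted p = 0.749). The median log2 fold change over these 9 was -0.020.

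The cascade that the inhibitors act on was tested in full. Of its 18 genes 0 passed the threshold in edgeR. Rps6ka1, a kinase that ERK activates, had the lowest value and an unadjusted p under 0.05 (-0.23, edgeR adjusted p = 0.616), and Sos1, which loads RAS with GTP, the highest (0.28, edgeR adjusted p = 0.694). Among other brakes on RAS, 9 of 10 were tested and 0 passed. Rasal3, a RAS GTPase-activating protein of blood cells (-0.26, edgeR adjusted p = 0.469), and Dgkz, which removes diacylglycerol (-0.22, edgeR adjusted p = 0.609), had an unadjusted p under 0.05, and Errfi1 had the highest value (0.46, edgeR adjusted p = 0.7504). In the JNK and p38 list, 8 of 9 were tested and 0 passed, with values from -0.31 for Map2k3 to 0.16 for Map2k6 (-0.14 for Map2k3 without WT replicate 4, where it was highest at 145.7 CPM), and 0 had an unadjusted edgeR p under 0.05.

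Across the 8 libraries, the genes whose profile was most like the mean profile of the 9 tested members, by Pearson's r of log2 CPM, were Tnfsf9, Ppp1r16b, Tagap1, Myc and Ncs1 (r from 0.9701 to 0.981). These were chosen from all tested genes by that measure, and all 5 were highest in WT replicate 4. The points share that library, and no test was made. Tnfsf9, a costimulatory ligand, was at 5.47 times the mean of the other WT libraries in it. Among the members themselves, r with the mean profile was between 0.699 and 0.878 for Dusp1, Dusp2, Dusp4, Dusp5, Dusp6 and Spry1. It was 0.13 for Dusp10, 0.313 for Spred1 and 0.259 for Spred2. Each member is part of the mean it is set against, so these r only describe the set.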

How the data were processed

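Unnormalized read counts for each gene symbol were deposited by the authors for 4 libraries labelled KO and 4 labelled WT (28239 symbols, 2 of them repeated). Libraries were made by MACE-seq according to the study's methods, while the labels name a small RNA kit. The submitters' processing notes name Bowtie, edgeR and GRCm38 with no role, and the counting tool is not given in the sources used here. Columns were matched to libraries by name. Certain genes of the lists and markers are not reported here by name.

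Genes at 2 CPM or more in at least 4 libraries were tested with edgeR 4.0.16 in R 4.3.3 (TMM scaling, quasi-likelihood test, two-sided, no replicate block), with Benjamini–Hochberg adjustment over all 12700 genes and a threshold of 0.05. Standard errors were taken as the log2 fold change divided by the square root of F, and 95% intervals used the total degrees of freedom. The code was tested on simulated data. The design text of the series gives 4 mice per group, and the smallest chi-square per degree of freedom between libraries of a group was 4.594, above counting noise. Total counts ran from 3723151 to 9538962, and the common biological coefficient of variation was 14.5%.

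Alternatives were DESeq2 size factors, upper quartile scaling, totals without hemoglobin genes, no filter, at least 10 counts in every library, robust and likelihood-ratio tests, DESeq2 1.42.0, limma-voom 3.58.1, a replicate block and each library left out. The members, lists and tests were chosen with earlier results of these data known. Named genes were all members, Alox15, and in other lists those past the threshold, those with an unadjusted p under 0.05 and the lowest and highest fold change, plus the 5 genes most like the members' mean profile (log2 CPM with a prior count of 2). Positions came from GENCODE M21 (GRCm38). Figures were drawn with matplotlib 3.10.9.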

Additional observations from a re-analysis of the deposited data

Results flagged for a closer look

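In each group of 4 libraries the most extreme value was set against the others by Dixon's ratio at the 95% level, for the members, Alox15 and the tested genes of the other lists. Of 146 groups tested, 16 stood out, where about 1 in 20 would by chance, and 10 of the 16 were WT replicate 4. Genes of a list share libraries, so these are not independent.

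Among the feedback inhibitors, WT replicate 4 was far above its group for Dusp2 (292.7 CPM, next 163 CPM), Dusp4 (109 CPM, next 55.8 CPM) and Spry1 (39.9 CPM, next 10.8 CPM). Dusp1, Dusp5 and Dusp6 were also highest in it without reaching the ratio. Replicate 2 labelled Alox15-/- was far below its group for Dusp2 (100.4 CPM, next 176 CPM).

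In the other lists, WT replicate 4 stood out as high for Fos (12.7 CPM), Fosb (16.7 CPM), Fosl2 (17.3 CPM), Egr1 (218 CPM), Ier2 (226 CPM), Zfp36 (57.0 CPM) and Map2k2 (225 CPM). WT replicate 2 stood out as high for Map2k6 (5.89 CPM). Under the Alox15-/- label, replicate 1 stood out as high for Egr1 (99.2 CPM) and Egr3 (87.7 CPM), and replicate 3 as high for Map2k2 (206.9 CPM) and low for Jun (21.6 CPM).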

How the results depend on the processing

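Over 20 other settings, 19 again called 0 feedback inhibitors. Without the filter on low counts edgeR called 4 of 10 (Dusp1 -0.53, Dusp4 -0.53, Dusp5 -0.53 and Spry1 -0.91, all lower) beside 1.37% of genes, and 0 when WT replicate 4 was also left out. The median log2 fold change of the 9 ran from -0.30 to 0.115 over the fits that each lacked 1 library, 0.072 without KO replicate 2 and WT replicate 4, and 0.0921 without the filter and WT replicate 4. Directions turned for Dusp2 without WT replicate 4 (0.115), without it and KO replicate 2 (0.285) and without it and the filter (0.0921), for Dusp6 without WT replicate 3 (-0.033), and for Spry1 without KO replicate 2 and WT replicate 4 (0.0247). The directions of the other tested members held in all settings. With 1 library left out, Dusp6 reached 0.451 (WT replicate 4) and Spry1 -1.13 (WT replicate 3).

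The number of genes called, 158 of 12700, was 388 of 28239 without the filter, 396 of 27832 without the filter and WT replicate 4, 100 with at least 10 counts in every library and 86 to 173 with each library left out. In the other lists the 1 call, Phlda1, became 0 with upper quartile scaling, with at least 10 counts in every library and without KO replicate 2 and WT replicate 4, 4 without the filter, 3 without the filter and WT replicate 4, and 0 to 1 with each library left out. Without the filter, the fitted errors of the called members were also smaller, at nearly the same fold changes. The causes were not tested, beyond the genes and libraries each setting adds or removes. Alox15 kept its call throughout (log2 fold change 3.38 to 4.00).

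Correlations of same-numbered deviations gave no evidence that the replicate numbers pair the libraries (0.0691, 0.165, -0.178 and -0.0177). They cannot show that no pairing existed, and KO replicate 2 and WT replicate 2 were each other's best match. When replicate number entered as a block, edgeR called 0 members and 0 genes of the other lists, as Phlda1 (-0.686) had an adjusted p of 0.0935, and the call of Alox15 held. The marker calls were not run with the block. Depth limits Spry2, from 2 to 25 reads per library.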

Other observations

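Several relatives of the members stayed under the filter, and their read counts, looked at after the main results, are given without a test. Dusp8, a phosphatase of JNK and p38, had 3, 3, 1 and 3 reads in the libraries labelled Alox15-/- and 0, 0, 1 and 1 reads in WT. Spry4 had 1, 1, 5 and 3 reads against 1, 2, 4 and 3 reads. Dusp3 had 7, 9, 15 and 9 reads against 3, 5, 13 and 16 reads, and Dusp9, a cytoplasmic ERK phosphatase, 2, 1, 3 and 2 reads against 7, 1, 7 and 5 reads. These reads are too few to compare the groups.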
